A study of Mus musculus with 9 samples.

Results

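The small leucine-rich proteoglycans (SLRPs) are secreted matrix proteins with a core of leucine-rich repeats, and 10 genes were followed by their symbols: Dcn, Bgn and Aspn of class I, Lum, Fmod, Omd, Prelp and Kera of class II, and Ogn and Epyc of class III. These were 10 of the 54532 genes counted, and 8 of them were among the 15909 genes with enough reads to be tested. Kera and Epyc were not. Libraries were made from enamel organs of the first molars, 1 per mouse, taken at postnatal day 12 from 9 male pups. In the early life adversity (ELA) group, 5 pups were raised from day 2 to day 12 in cages with little nesting and bedding material, and the other group held 4 controls. Every pup, control or ELA, was born to a Crh-IRES-Cre +/+ dam and an Ai14 tdTomato male on the C57BL/6 background, so all groups carried Crh-IRES-Cre and the tdTomato reporter. By the labels, control pups weighed 5.9 ± 0.4 g and ELA pups 5.3 ± 0.4 g.

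SLRP cores bind fibrillar collagens and help set the diameter and spacing of the fibrils, and most of them carry chains of chondroitin, dermatan or keratan sulfate. Several, with decorin and biglycan the best studied, also bind growth factors of the TGF-beta family, and asporin binds both collagen and calcium. In teeth, SLRPs are known mainly from the dentin matrix, the dental follicle, the periodontal ligament and bone, whereas the enamel organ is an epithelium whose ameloblasts secrete enamel proteins. The libraries held both kinds of RNA: the 10 ameloblast markers summed to between 80193 and 169480 CPM (counts scaled to a common library total, with library sizes adjusted by the TMM method), and Col3a1, a fibrillar collagen of mesenchymal cells, reached 2029 to 6341 CPM. In such bulk samples, fewer cells of a type and less RNA per cell cannot be told apart.

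Total counts were 18056774 to 32110160 per ELA library and 18683431 to 20831736 per control library. Control titles begin with c-202 or c-204 and ELA titles begin with t-203 or t-205. The meaning of these numbers is not given, and no number occurs in both groups. With counts summed by title number, which leaves 2 sums against 2, the log2 fold change was -1.13 for Aspn, -0.73 for Lum, -0.72 for Omd, -0.49 for Dcn and -0.45 for Bgn. Each had an unadjusted edgeR p below 0.05 in that fit, and their edgeR adjusted p-values were 0.562 to 0.808. The share of all genes called at the unadjusted p was not computed for these sums. ELA mouse t-203-1-4 stood apart, with 515.7 CPM of 8 nervous tissue markers against 57.8 to 91.3 CPM in the other libraries, and the values of Aspn and Lum are given with and without it.

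Apart from Bgn, the SLRP genes lie in clusters, given here on GRCm38, since 98.33% of the 54495 genes matched to GENCODE M21 have its coordinates. On chromosome 13, Aspn, Omd and Ogn follow each other on the plus strand within 80059 bases (49544443 to 49624501). On chromosome 10, Dcn, Lum, Kera and Epyc follow each other on the plus strand within 202846 bases (97479609 to 97682454). Prelp on the minus strand and Fmod on the plus strand span 137974 bases of chromosome 1 (133910304 to 134048277), and Bgn stands alone on chromosome X (73483602 to 73495933, plus strand).

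**Figure D1:**
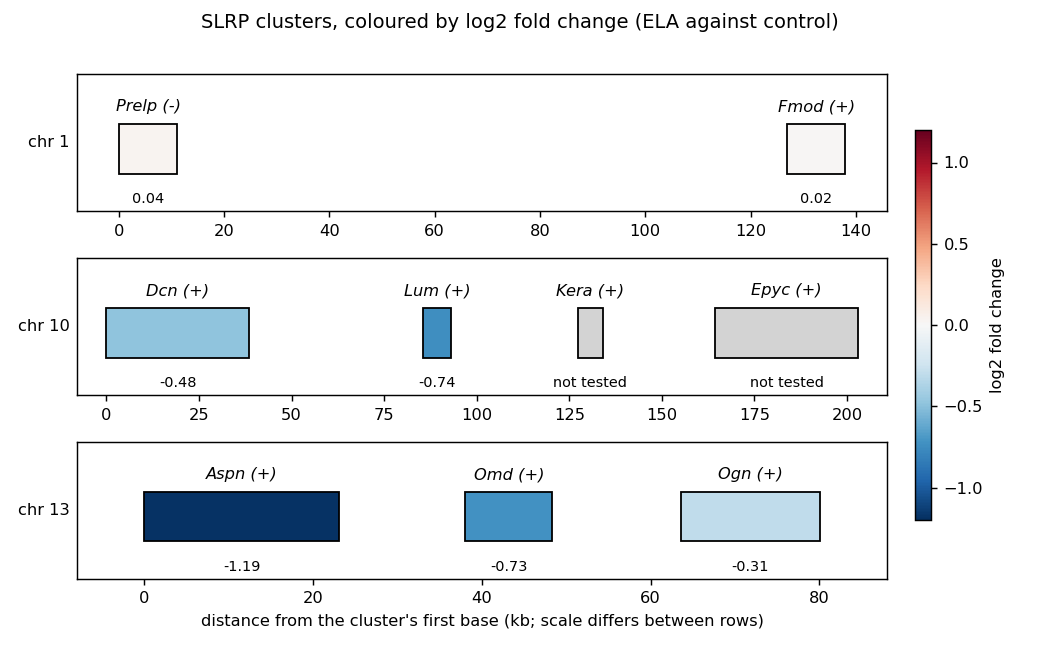
Distance in kb from the first base of each of 3 SLRP clusters (x axis, with its own scale per row), with 1 box per gene, its strand in brackets, and the edgeR log2 fold change of ELA against control as the colour and the number below. The 3 genes on chromosome 13 have values of -1.19, -0.73 and -0.31, and the pair on chromosome 1 has values near 0.

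Promoters of 300 bases, from 250 before the start site to 50 from it, were matched for 8 of the 10 members in RefSeq on GRCm38.p6. The promoters of Aspn, Omd and Ogn are shown because these neighbours had their lowest control value and their highest ELA value in the same mice, and those of Bgn and Fmod because these mice stood at the other end of their groups for them. Lum on chromosome 10 had its lowest control and highest ELA value in these mice too, but no promoter was matched for Lum or Dcn. Capitals mark matches, on either strand, to any of 4 motifs. The TATA box was searched as TATAAA. The core bound by RUNX factors was searched as TGTGGT, and the GC box as GGGCGG. For SMAD factors, which act below TGF-beta receptors, the letters were CAGACA. Matches that overlap form 1 run of capitals.
Aspn, chr13:49544193-49544492, plus strand: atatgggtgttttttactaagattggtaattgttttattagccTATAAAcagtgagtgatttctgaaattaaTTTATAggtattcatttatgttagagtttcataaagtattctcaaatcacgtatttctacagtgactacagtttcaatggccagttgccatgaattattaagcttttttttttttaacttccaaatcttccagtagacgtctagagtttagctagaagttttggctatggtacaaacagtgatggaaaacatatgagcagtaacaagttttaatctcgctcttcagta
Omd, chr13:49582212-49582511, plus strand: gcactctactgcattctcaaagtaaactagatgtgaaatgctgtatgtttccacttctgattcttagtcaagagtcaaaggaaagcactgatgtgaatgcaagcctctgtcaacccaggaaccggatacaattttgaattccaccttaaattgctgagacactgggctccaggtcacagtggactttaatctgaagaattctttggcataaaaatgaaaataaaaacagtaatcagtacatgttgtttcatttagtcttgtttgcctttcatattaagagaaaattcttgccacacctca
Ogn, chr13:49607765-49608064, plus strand: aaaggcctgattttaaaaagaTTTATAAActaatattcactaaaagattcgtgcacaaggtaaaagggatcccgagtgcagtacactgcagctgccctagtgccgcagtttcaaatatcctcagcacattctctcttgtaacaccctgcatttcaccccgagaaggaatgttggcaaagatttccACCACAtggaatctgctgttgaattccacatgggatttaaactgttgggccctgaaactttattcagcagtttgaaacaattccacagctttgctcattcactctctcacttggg
Bgn, chrX:73483351-73483650, plus strand: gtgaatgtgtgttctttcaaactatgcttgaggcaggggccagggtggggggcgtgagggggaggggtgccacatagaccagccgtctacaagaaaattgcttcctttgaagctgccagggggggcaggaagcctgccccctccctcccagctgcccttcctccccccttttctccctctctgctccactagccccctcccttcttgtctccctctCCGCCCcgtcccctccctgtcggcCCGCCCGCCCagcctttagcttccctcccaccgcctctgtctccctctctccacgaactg
Fmod, chr1:134037004-134037303, plus strand: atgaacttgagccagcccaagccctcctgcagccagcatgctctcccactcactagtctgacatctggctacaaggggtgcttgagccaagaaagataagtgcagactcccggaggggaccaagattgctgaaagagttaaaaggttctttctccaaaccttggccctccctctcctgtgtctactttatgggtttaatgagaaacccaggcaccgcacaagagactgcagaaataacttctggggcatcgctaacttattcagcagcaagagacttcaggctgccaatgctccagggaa

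The chromosome 13 promoters were poor in G and C, with 31% in Aspn, 37.7% in Omd and 42.3% in Ogn, against a median of 52.7% over 32851 promoters. Low values were not particular to chromosome 13, since Kera of the chromosome 10 cluster had 41% and Epyc 40.3% and 32.3% at its 2 start sites. Bgn had 63.7%, Prelp 55.3% and Fmod 51%. TATAAA was matched in Aspn, where the matches begin at positions -207 and -178 from the start site, and in Ogn, where an overlapping pair begins at -229 and -227. The same letters are in 13.62% of all promoters. GGGCGG was matched 3 times in Bgn, at -34, -10 and -6, and is in 35.66% of all promoters. TGTGGT, in 16.76% of all promoters, was matched in Ogn at -65 and in Epyc at 38. CAGACA, in 21.04%, was matched in Prelp at 16 and 26, and none of the 4 motifs was matched in Omd, Fmod or Kera.

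Compared per length, Lum was the most abundant SLRP transcript, with a mean of 343.9 FPKM (CPM divided by the gene length in kilobases, here the length in the table) over the 9 mice. Lumican carries keratan sulfate in the cornea and binds fibrillar collagen. Ogn followed with 117.9 FPKM, then Bgn with 90.5, Omd with 76.9, Dcn with 54.7, Aspn with 43.3, Fmod with 18.5 and Prelp with 2.62 FPKM. Lum was above Ogn, and Fmod above Prelp, in 9 of 9 mice with no overlap of their ranges. The neighbours between Ogn and Aspn changed places in 1 to 3 of the 9 mice, and the mean log2 ratio of Ogn to Bgn (0.38 ± 0.61, SD), of Bgn to Omd (0.26 ± 0.57) and of Dcn to Aspn (0.48 ± 0.58) was within its spread. Kera and Epyc were at the bottom, with 0.104 and 0.0231 FPKM.

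The middle of this order rests on the length used. The table's length covers all exons of a gene, and for Dcn (5838 bases) and Bgn (6099 bases) it is far above that of the principal transcript in GENCODE M21 (1758 and 2419 bases). With the principal transcript's length, an alternative chosen after the values were seen, Bgn came next to Lum with 228.1 FPKM and Dcn followed with 181.8 FPKM. Lum was then above Bgn in 8 of 9 mice, and Bgn above Dcn in 9 of 9. The first place of Lum and the order from Aspn down to Epyc were the same with both lengths.

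**Figure D2:**
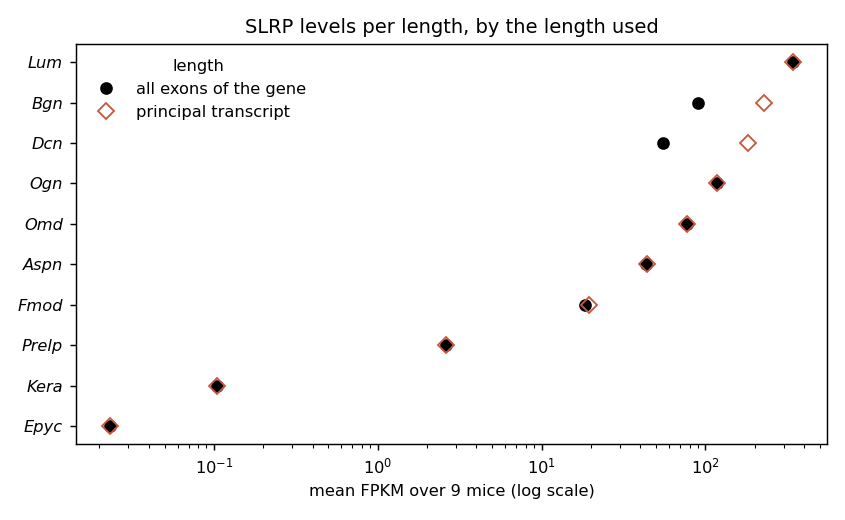
Mean FPKM over 9 mice (x axis, log scale) of the 10 SLRP genes, with the length of all exons (filled circles) or of the principal transcript (open diamonds). Bgn and Dcn move from 90.5 to 228.1 and from 54.7 to 181.8 FPKM with the shorter length, and Lum stays at 343.9.

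ELA was compared with control to ask whether the SLRP transcripts differ in level. Aspn, Lum, Omd and Dcn had lower means in ELA, with folds of 0.44 to 0.72 and unadjusted p-values below 0.05 in edgeR, and Fmod and Prelp had folds of 1.01 and 1.02. No member passed the adjusted p in edgeR's quasi-likelihood test, 0 of 8, where 0.0251% of all tested genes were called lower. At the unadjusted p, 4 of 8 members were lower and 0 higher, against 2.89% of all genes lower and 3.56% higher. DESeq2, the other count model, called Aspn and Lum, 2 of 8, against 0.388% of its genes lower, and limma-voom called 0 at the adjusted p. The median log2 fold change was -0.46 over the 8 members and 0.01 over all genes tested, with 6 of 8 members below 0 against 47.4% of all genes.

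**Figure D3:**
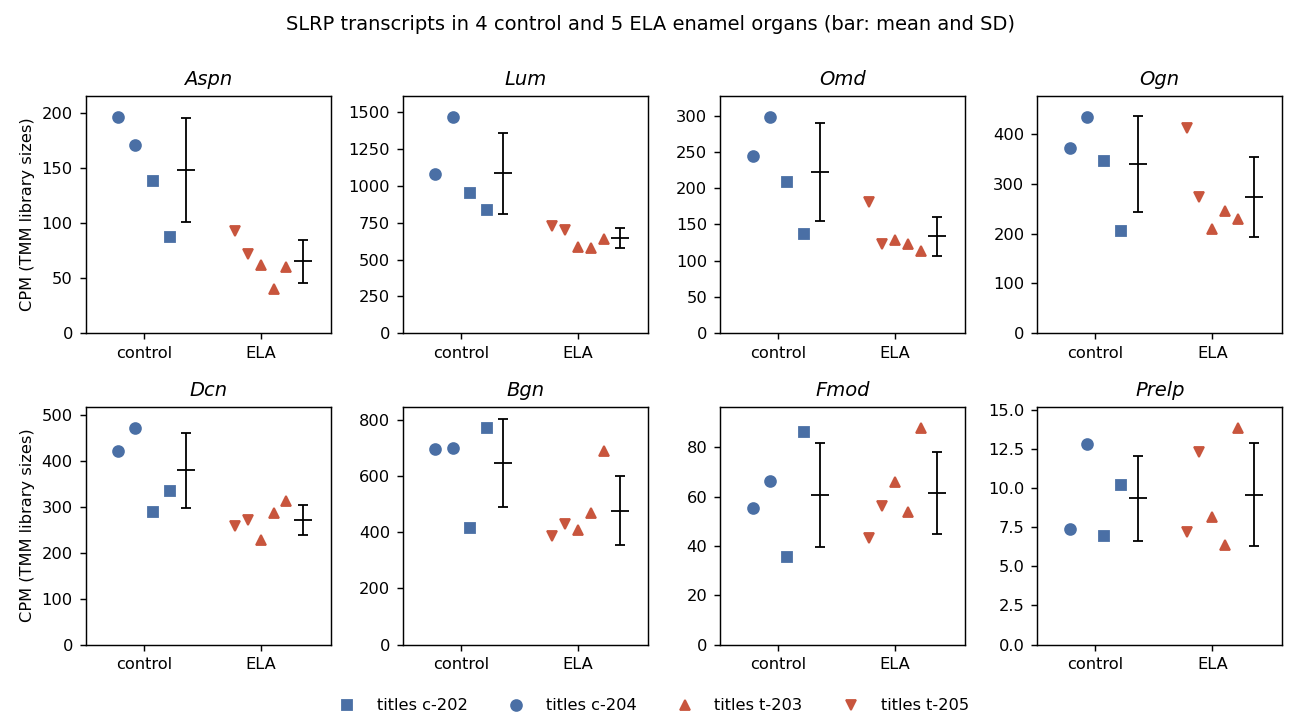
CPM (y axis, from 0) of the 8 tested SLRP genes in each control (blue) and ELA (red) mouse, with shapes for the title numbers and black bars for the group mean and SD. All 5 ELA mice lie below all 4 controls for Lum, and for Fmod and Prelp the groups cover the same range.

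Class I holds asporin, decorin and biglycan. Aspn, whose product binds collagen and calcium and is made in the periodontal ligament, was at 138, 87.4, 196 and 171 CPM in control mice c-202-1-1, c-202-1-2, c-204-1-1 and c-204-1-2. In ELA mice t-203-1-3, t-203-1-4, t-203-1-5, t-205-1-1 and t-205-1-3 it was at 61.8, 39.7, 60.1, 92.7 and 71.5 CPM. Of the 5 ELA mice, 4 were below every control, and the groups overlapped only through t-205-1-1 and c-202-1-2. The means were 65.2 ± 19.2 CPM (SD, n = 5) and 148 ± 46.9 CPM (SD, n = 4), a log2 fold change of -1.19 ± 0.26 (SE; edgeR adjusted p = 0.166; DESeq2 adjusted p = 0.00238). Without t-203-1-4 the log2 fold change was -1.05, with an unadjusted p still below 0.05.

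Dcn encodes decorin, which binds type I collagen and TGF-beta. It was at 289, 336, 423 and 471 CPM in the controls and at 227, 287, 313, 259 and 271 CPM in the ELA mice, in the same order of mice as above. Only t-203-1-5 was above the lowest control, c-202-1-1. The log2 fold change was -0.48 ± 0.16 (SE; edgeR adjusted p = 0.569; DESeq2 adjusted p = 0.226). The unadjusted p was no longer below 0.05 without c-204-1-2 (log2 fold change -0.36), without the mice titled t-205 (-0.45) or without those titled c-204 (-0.20).

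Bgn encodes biglycan, a relative of decorin abundant in bone and dentin. Its level was 416, 770, 696 and 700 CPM in the controls, with c-202-1-1 well below the others, and 409, 468, 690, 387 and 430 CPM in the ELA mice, with t-203-1-5 well above the others. The overlap came from c-202-1-1, since all other controls were above all ELA mice. The log2 fold change was -0.44 ± 0.22 (SE; edgeR adjusted p = 0.83).

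Lum, of class II, was at 951, 838, 1084 and 1466 CPM in the controls and at 588, 581, 641, 725 and 703 CPM in the ELA mice. It was the member whose groups did not overlap, 1 of 8, against 1.29% of all genes with every ELA mouse below every control. The means were 648 ± 65.6 CPM (SD, n = 5) and 1084 ± 273 CPM (SD, n = 4), a log2 fold change of -0.74 ± 0.17 (SE; edgeR adjusted p = 0.214; DESeq2 adjusted p = 0.00428). Without t-203-1-4 it was -0.71. The ELA mice differed little among themselves, whereas c-204-1-2 lay well above the other controls, and without that mouse the log2 fold change was -0.56.

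Omd encodes osteomodulin, a keratan sulfate proteoglycan of bone and dentin that binds collagen. Its level was 208, 137, 245 and 298 CPM in the controls and 129, 123, 113, 181 and 123 CPM in the ELA mice. As for Aspn, c-202-1-2 was the lowest control and t-205-1-1 the highest ELA mouse, and the overlap came from these libraries. The log2 fold change was -0.73 ± 0.21 (SE; edgeR adjusted p = 0.440; DESeq2 adjusted p = 0.0985). The unadjusted p was no longer below 0.05 without the mice titled t-203 (log2 fold change -0.55) or without those titled c-204 (-0.37).

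Fmod encodes fibromodulin, which binds type I collagen and shapes tendon fibrils. It was at 35.5, 86.1, 55.3 and 66.3 CPM in the controls and at 65.8, 53.9, 87.7, 43.3 and 56.4 CPM in the ELA mice. The groups covered the same range, and the log2 fold change was 0.02 ± 0.25 (SE; edgeR adjusted p = 0.999). Prelp, whose product binds heparan sulfate and collagen at basement membranes, had 6.96 to 12.8 CPM in controls and 6.37 to 13.8 CPM in ELA, a log2 fold change of 0.04 ± 0.27 (SE; edgeR adjusted p = 0.999). Both SEs were larger than that of Dcn (0.16), and the absence of a call does not show that the levels were equal.

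Ogn, of class III, encodes osteoglycin (mimecan), found in bone, sclera and many connective tissues. It was at 345, 206, 372 and 433 CPM in the controls and at 208, 246, 229, 411 and 273 CPM in the ELA mice. The lowest library of all was a control, c-202-1-2, and t-205-1-1 was above 3 of the 4 controls. The log2 fold change was -0.31 ± 0.24 (SE; edgeR adjusted p = 0.952).

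Kera and Epyc, known from cornea and from cartilage, were barely detected. Kera had 4, 5, 0 and 1 reads in the controls and 12, 4, 15, 2 and 5 in the ELA mice, which is 10 reads against 38 in all. Epyc had 0, 3, 2 and 2 reads in the controls and 3, 0, 1, 0 and 0 in the ELA mice. In a library, 3 reads correspond to 0.0934 to 0.166 CPM, and a difference in Epyc was not detectable at this depth. With the filter on low counts removed, edgeR gave Kera a log2 fold change of 1.39 ± 0.92 (SE; adjusted p = 0.709).

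**Figure D4:**
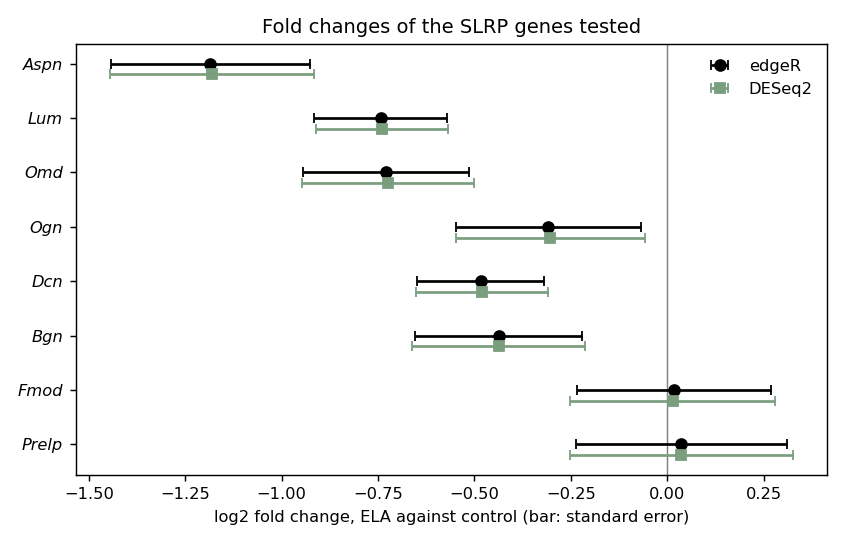
Log2 fold change of ELA against control with its standard error (x axis) for the 8 tested SLRP genes, by edgeR (circles) and DESeq2 (squares). Aspn lies lowest at -1.19 and Fmod and Prelp lie at 0.02 and 0.04, with nearly equal estimates from both tools.

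The 10 members together held 0.1602 to 0.2166% of the counts of each ELA library and 0.2344 to 0.3604% of each control library, so these ranges did not overlap. With library sizes adjusted by TMM, the sums were 1699 to 2149 CPM in ELA and 2390 to 3618 CPM in controls. Lum, itself free of overlap, had the most counts of the members over all libraries. No share over all genes was computed for such sums. With the length of all exons, Lum made up 43.8 ± 1.96% (SD, n = 5) of the summed SLRP level per length in ELA and 47.5 ± 2.26% (SD, n = 4) in controls. Shares with the principal transcript's length, which raises Bgn and Dcn but not Lum, were not computed. Aspn made up 4.53 ± 0.98% and 6.73 ± 1.47%. Fmod, with 3.12 ± 0.91% in ELA and 2.07 ± 1.00% in controls, had the opposite order of means. The same order held for Ogn (17.4% in ELA and 14.1% in controls), Bgn (13.0% and 11.7%) and Dcn (7.7% and 7.0%). It also held for Prelp (0.44% and 0.28%) and for Kera, which rests on few reads. Omd and Epyc had smaller mean shares in ELA.

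Across mice, the members varied in different ways. Control c-202-1-2 was the lowest control for Aspn, Lum, Omd and Ogn and the highest for Bgn and Fmod. Among ELA mice, t-205-1-1 was the highest for those 4 genes and the lowest for Bgn and Fmod, and t-203-1-5 was the highest for Dcn, Bgn, Fmod and Prelp. Which member overlapped between groups therefore depended on single libraries: without c-202-1-2 or without t-205-1-1, Aspn, Lum and Omd were free of overlap, and without c-202-1-1 it was Dcn, Bgn and Lum. Leaving out a mouse makes overlap less likely for any gene, and the share of all genes free of overlap in these smaller sets was not computed.

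**Figure D5:**
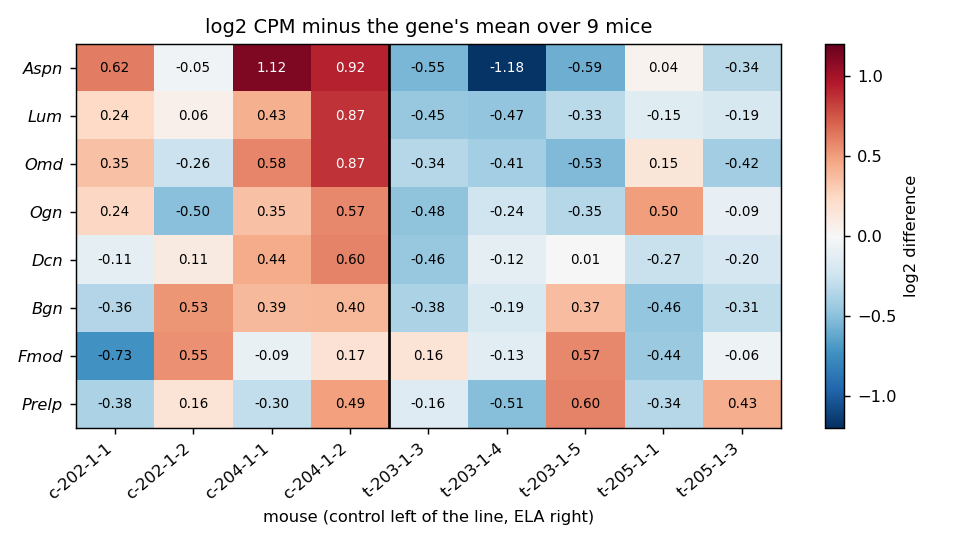
Log2 CPM of each tested SLRP gene (rows) in each mouse (columns, controls left of the line), minus the gene's mean over the 9 mice, from blue (below) to red (above). Aspn is at 1.12 in c-204-1-1 and -1.18 in t-203-1-4, and c-202-1-2 is below 0 for Aspn, Omd and Ogn but above 0.5 for Bgn and Fmod.

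Likeness between genes was measured as the root mean square difference of log2 CPM centred on each gene's mean over 9 mice, which includes the difference between the groups. Lum and Omd were the closest pair of members (0.19), followed by Dcn and Lum (0.22), Dcn and Bgn (0.23), Omd and Ogn (0.24) and Bgn and Fmod (0.30). Aspn and Fmod were the farthest apart (0.91). Chromosomal neighbours were among both the close and the less close pairs, with 0.24 for Omd and Ogn, 0.34 for Aspn and Omd, and 0.32 for Fmod and Prelp. All points share the same 9 libraries, so these are descriptions.

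Of the 15908 other genes, Postn, which encodes periostin of the periodontal ligament, was nearest to Aspn (0.18), with 749.9 ± 260.4 CPM in ELA and 1594 ± 365 CPM in controls, followed by Mmp12 (0.28). The nearest to Lum were Tnfrsf19 (0.14) and Mmp19 (0.14), and to Dcn Fam114a1 (0.10) and Cdh11 (0.12), a cadherin of mesenchymal cells. For Bgn they were L3hypdh (0.13) and Tgfb3 (0.13), a TGF-beta ligand, and for Fmod Mettl17 (0.12) and Lhx6 (0.14), a homeobox gene of jaw mesenchyme. Omd was nearest to Ccdc152 (0.17) and, apart from Lum, Tmem117 (0.20), Ogn to Zfp273 (0.14) and Vwa5a (0.15), and Prelp to Aif1l (0.17) and 6720427I07Rik (0.17).

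The genes beside the clusters did not share one direction. Ecm2, a leucine-rich matrix gene 11653 bases before Aspn, had 6.92 ± 1.08 CPM in ELA and 10.2 ± 2.11 in controls (log2 fold change -0.56, edgeR adjusted p = 0.571). Cenpp, a centromere gene on the opposite strand that spans the chromosome 13 cluster, had 0.12 (edgeR adjusted p = 0.999) and Nol8 on the other side 0.16 (edgeR adjusted p = 0.999). Beside the other genes, the log2 fold change was -0.01 for Btg2, -0.11 for Btg1, 0.06 for Haus7, and 2.12 for Atp2b3 beside Bgn. The value of Atp2b3 rests on t-203-1-4, with 12.9 CPM against 0.25 to 1.05 CPM in the other mice, and was -0.15 without it. Whether reads were counted by strand is not given, but Cenpp shares 7 exon bases with Aspn and 0 with Omd and Ogn, and had 40 to 111 reads per library where Aspn had at least 911.

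Among the collagens and matrix proteins that SLRPs bind, 15 of 19 tested genes were below 0, against 47.4% of all genes tested. At the unadjusted p 6 passed, all lower, against 2.89% of all genes. The median log2 fold change was -0.49, and 0 passed edgeR's adjusted p. Col3a1 had 2673 ± 476 CPM in ELA and 5138 ± 1282 in controls (log2 fold change -0.94, edgeR adjusted p = 0.166; DESeq2 adjusted p = 0.00179), with no overlap. Col5a1, which nucleates fibrils (-0.73, edgeR adjusted p = 0.560), and Col12a1, a fibril-associated collagen (-0.59, edgeR adjusted p = 0.567), were next. Col1a1 had 4098 to 11606 CPM in controls and 2968 to 9508 in ELA, with c-202-1-2 and t-203-1-5 highest in their groups, as for Bgn and Fmod.

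Levels were also set against other genes within each library, in ratios chosen after the values were seen. The ratio of Fmod to Bgn was 0.1121 to 0.161 in ELA and 0.0796 to 0.1118 in controls. These ranges did not overlap but nearly touched, at 0.1121 in t-205-1-1 and 0.1118 in c-202-1-2. It was the one ratio free of overlap among 7 to Bgn, against 1.80% of all genes whose ratio to Bgn was higher in every ELA mouse. The ratio of Fmod to Col3a1 also did not overlap (0.018 to 0.0325 in ELA and 0.00873 to 0.0155 in controls), 1 of 8, but 27.5% of all genes did the same. Relative to Col3a1, Dcn was at 0.103 ± 0.01 in ELA and 0.0756 ± 0.014 in controls and Aspn at 0.0252 ± 0.0094 and 0.03 ± 0.011, with overlap. None of the 8 ratios to Col1a1 was free of overlap.

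Of 23 genes of chondroitin and dermatan sulfate synthesis, which build the glycosaminoglycan chains, 13 were below 0, against 47.4% of all genes tested. Their median was -0.06 on the log2 scale. At the unadjusted p 4 passed, all lower, against 2.89% of all genes. These 4 included Csgalnact2, which starts chondroitin chains (-0.35, edgeR adjusted p = 0.644), Chpf2 (-0.34, edgeR adjusted p = 0.659) and the epimerase gene Dsel (-0.35, edgeR adjusted p = 0.714). Of 7 tested genes of keratan sulfate synthesis, 3 were below 0. Chst1, a sulfotransferase of keratan sulfate, was higher, with 41.9 ± 25.3 CPM in ELA and 2.79 ± 0.48 in controls (log2 fold change 3.91 ± 0.55, SE; edgeR adjusted p = 0.0477), the one gene of the 7 lists to pass the adjusted p in edgeR, against 0.0377% of all genes called higher. It was at 12.1 to 63.3 CPM in the ELA mice and 2.12 to 3.25 CPM in the controls. Its DESeq2 adjusted p was 1.47e-15, where 0.502% of all genes were called higher. With 1 mouse left out, its edgeR adjusted p was 0.00585 to 0.274 and passed only without t-205-1-3, with log2 fold changes of 3.72 to 4.15. Chst5 had 3.95 ± 0.67 and 5.58 ± 0.49 CPM (-0.50, edgeR adjusted p = 0.682).

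Of 18 tested ligands and receptors of the growth factors that SLRPs bind, 14 were below 0, against 47.4% of all genes tested. At the unadjusted p 2 were lower, against 2.89% of all genes, Tgfb2 (-0.43, edgeR adjusted p = 0.482) and Bmp2 (-0.52, edgeR adjusted p = 0.666). Bmp4 had a value of 0.47 (edgeR adjusted p = 0.830). Of 10 tested proteinases and their enhancers, Mmp2, a gelatinase, was lower (-0.74, edgeR adjusted p = 0.482), Pcolce2, an enhancer of procollagen processing, was higher (0.57, edgeR adjusted p = 0.613), and Mmp13 had -0.51 (edgeR adjusted p = 0.801), all of them past neither tool's adjusted p.

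Other leucine-rich matrix genes and other proteoglycans had values in both directions. Among 6 tested leucine-rich relatives, Tsku, which encodes tsukushi, was higher, with 311 ± 33.2 CPM in ELA and 220 ± 20.5 in controls (log2 fold change 0.50, edgeR adjusted p = 0.326; DESeq2 adjusted p = 0.0142, where 0.502% of all genes were called higher), and Podnl1 was lower at the unadjusted p only (-0.62, edgeR adjusted p = 0.488). Of 23 other proteoglycans, 3 were lower and 2 higher at the unadjusted p, against the 2.89% and 3.56% of all genes, among them the testicans Spock1 (-0.69, edgeR adjusted p = 0.481) and Spock2 (1.30, edgeR adjusted p = 0.534, and 0.83 without t-203-1-4) and the glypican Gpc3 (0.43, edgeR adjusted p = 0.671).

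Marker genes of several cell types were also followed, and their fold changes lay in both directions. The 9 markers of dental follicle and periodontal ligament summed to 708 to 1329 CPM in ELA and 1688 to 2613 CPM in controls. Of these, 8 of 9 were below 0 and 5 were lower at the unadjusted p, against 47.4% and 2.89% of all genes tested. Thbs4 passed edgeR's adjusted p (-1.54, adjusted p = 0.0477), where 0.0251% of all genes were called lower. Ameloblast markers summed to 106236 to 169480 CPM in ELA and 80193 to 106063 in controls, ranges that nearly touched. Most of these sums was Ambn, with 71524 ± 13283 CPM in ELA and 49539 ± 6280 in controls. Of the 10 markers 2 were below 0, and 4 were higher at the unadjusted p, against 3.56% of all genes. Amelx, which encodes amelogenin, was higher (1.56, edgeR adjusted p = 0.0477). Enam was at 2397 ± 1961 and 60.8 ± 10.4 CPM (5.30, edgeR adjusted p = 0.0571; DESeq2 adjusted p = 2.69e-10). The DESeq2 adjusted p was 9.46e-09 for Thbs4 and 1.56e-10 for Amelx, where 0.388% of its genes were called lower and 0.502% higher. With 1 mouse left out, Thbs4 passed edgeR's adjusted p in 2 of 9 fits (without t-205-1-3 or c-202-1-1) and Amelx in 1 (without t-205-1-3), with adjusted p-values up to 0.257 and 0.274. The 14 markers of mesenchyme and fibroblasts summed to 10176 to 21938 CPM in ELA and 13098 to 28890 in controls, with 11 of 14 below 0 and overlap between the groups. None of the markers in these 3 lists was at 0 in all libraries, and their part in the SLRP values was not tested.

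The remaining marker sums overlapped between the groups, but most of the genes of 3 lists lay below 0, as did most SLRPs. These were 8 of 10 osteoblast markers, 5 of 5 odontoblast markers and 8 of 8 macrophage and osteoclast markers, against 47.4% of all genes tested. At the unadjusted p, 3, 1 and 1 of them were lower, against 2.89% of all genes. Among them was Ibsp of bone (log2 fold change -0.92, edgeR adjusted p = 0.229; DESeq2 adjusted p = 0.00937), and 1 osteoblast marker, Alpl, was higher. The osteoblast and odontoblast lists share Dmp1 and Phex, and the lower marker Dmp1 is counted in both. Of 6 chondrocyte markers 4 lay below 0, and of the endothelial and the pericyte and smooth muscle markers 3 of 6 and 3 of 7. Their part in the SLRP values was not tested either. The sums of osteoblast markers were 2657 to 4018 CPM in ELA and 3059 to 3911 in controls. A large part was Alpl, with 1650 ± 119 CPM in ELA and 1322 ± 72.5 in controls, against the direction of most of the list. For odontoblasts the sums were 3700 to 13628 CPM in ELA and 5099 to 14504 in controls, and for chondrocytes 194 to 643 and 209 to 674. For endothelium they were 343 to 372 and 317 to 400, and for pericytes and smooth muscle 542 to 886 and 502 to 749. For macrophages and osteoclasts they were 214 to 606 and 401 to 634. Control c-202-1-2 had the highest sums of mesenchymal, odontoblast and chondrocyte markers and the lowest of ameloblast markers, whereas t-205-1-1 had the lowest sums of the first 3 lists. The mesenchymal and odontoblast lists share Col1a1, which was most of the odontoblast sum in both mice. It had 11606 of 14504 CPM in c-202-1-2 and 2968 of 3700 CPM in t-205-1-1. These mice were at opposite ends of their groups for Aspn, Lum, Omd and Ogn on the one hand and Bgn and Fmod on the other, as given above.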

How the data were processed

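The authors deposited counts, whole numbers of reads for each Ensembl gene, which a sequencing company had made from polyA-selected RNA. CASAVA, HISAT and HISAT2 are named in the submitters' processing notes. Not given in the sources used here are their versions, the genome build, how reads were counted and whether strand was used. Columns were assigned to mice by name, and each mouse was 1 replicate. The mice may share litters, and p-values treat them as independent. All pairs of libraries in a group differed by more than sampling noise.

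Counts were tested with edgeR 4.0.16 in R 4.3.3 (filterByExpr with a minimum count of 10, TMM, robust quasi-likelihood fit) over 15909 genes, with the Benjamini-Hochberg adjusted p at a threshold of 0.05. DESeq2 1.42.0, which the methods of the study name, limma-voom 3.58.1, other normalizations and filters, title numbers summed or left out, and each mouse left out were alternatives. The fit was tested on simulated data. Log2 CPM used a prior count of 2. FPKM used the length column of the table. The members and lists were chosen with earlier results of these data known, so no list was tested. Named genes are the members, the 3 smallest p of each list, the nearest member and the 2 nearest other genes by likeness, and genes beside or overlapping members. Col1a1 by mouse and the ratios were chosen after the values were seen.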

Additional observations from a re-analysis of the deposited data

Results flagged for a closer look

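In groups of 4 or 5 mice, a value was singled out where its gap to the nearest other mouse was a large part of the group's range by Dixon's criterion, which chance meets in about 1 of 20 groups. Of 20 groups (10 genes in ELA and control), 3 met it. Bgn was at 689.9 CPM in ELA mouse t-203-1-5, against 387 to 468 CPM in the other ELA mice. Omd was at 180.7 CPM in ELA mouse t-205-1-1, against 113 to 129 CPM in the others. Epyc was at 0.1559 CPM in ELA mouse t-203-1-3, which rests on 3 reads.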

How the results depend on the processing

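Over 21 alternatives, Dcn, Bgn, Aspn, Lum and Omd stayed below 0 throughout, with log2 fold changes of -0.73 to -0.20, -0.66 to -0.30, -1.50 to -0.80, -0.98 to -0.47 and -1.03 to -0.37. Adjusted p-values ranged from 0.00238 to 0.9996 for Aspn and from 0.00428 to 0.9996 for Lum, and only DESeq2 passed the threshold, with 2 members lower against 0 in edgeR. Without the mice titled c-204, 2 members (Aspn and Lum) rather than 4 were lower at the unadjusted p. Dcn lost that call without c-204-1-2 or the mice titled t-205, and Omd without those titled t-203. The count of members free of overlap, 1 in the report, was 5 with counts summed by title number, 2 with plain library totals, 5 without the mice titled c-202, 2 without those titled t-203, 3 without those titled t-205, and 1 to 3 with 1 mouse left out (3 without c-202-1-1, c-202-1-2 or t-205-1-1, 2 without t-203-1-5). It was not recomputed where only the test or the filter changed. The share of all genes lower without overlap, 1.29% with all 9 mice, was not computed for the alternatives. With mice summed or left out, groups hold fewer values and overlap less readily, so those counts cannot be set against that share. With principal transcript lengths, chosen after seeing the data, 6 of 10 genes kept their place in the order of levels.

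Fmod, near 0 in the report, was at -0.0221 with counts summed by title number, -0.0563 with plain library totals, -0.0034 with upper-quartile normalization and -0.29 without the mice titled t-203, and at -0.17 to 0.23 with 1 mouse left out. Prelp was at -0.0219 with plain library totals, -0.0825 without the mice titled c-202, and -0.13 to 0.23 with 1 mouse left out. Ogn was at 0.0132 without the mice titled t-203. The causes were not tested. Plain library totals moved the median of all genes to -0.05. No paired analysis was possible because the titles share no numbers between the groups. The planned order by RefSeq coding length was not run, since no protein table was used here. Precision is limited by 4 and 5 mice and, for Kera and Epyc, by at most 15 reads per library.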
